A study of Mus musculus with 2 samples.

Results

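Enzymes that add or remove methyl and acetyl groups on histones were examined in regulatory T (Treg) cells. They were taken by name from the array design: gene symbols of the Kdm, Setd, Setdb, Suv39h, Suv420h, Ezh, Whsc1, Ash1l, Dot1l, Hdac, Sirt, Kat, Myst, Mll, Ehmt and Prmt families, with Ep300 and Crebbp. This gave 85 of the 30069 gene names on the array, on 137 probes in 164 spots. Of the 85, 44 are writers (methyltransferases, acetyltransferases and related SET-domain proteins) and 34 are erasers (demethylases, deacetylases and sirtuins). The other 7 share only the name: the 6 Mllt genes, which encode fusion partners of Mll1 in leukaemia, and the pseudogene Kat2b-ps. The array uses older symbols for 15 of them, such as Mll1 (now Kmt2a), Mll2 (Kmt2d), Mll3 (Kmt2c), Mll5 (Kmt2e), Myst1 (Kat8), Myst2 (Kat7), Myst3 (Kat6a), Myst4 (Kat6b), Setd8 (Kmt5a), Whsc1 (Nsd2) and Prmt10 (Prmt9), and the array's symbols are kept here.

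Total RNA of sorted Treg cells was hybridised to 1 single-colour Agilent array for each of 2 groups, both from mice 5 weeks old. One library is labelled Nr4a-deficient, with the mice called Nr4a-TKO in the protocol, and the other is labelled wild-type. The Nr4a genes encode nuclear receptors that are induced by T cell receptor signals. The alleles, the promoter of any Cre, the strain, the tissue, the sort markers and the number of animals are not given in the sources used here. With 1 array per group there was no replicate and no test, so every difference describes these 2 libraries. A level is the log2 signal relative to the array's 75th percentile of gene probes (1762 and 2047 in the library labelled Nr4a-deficient and the wild-type library), and a difference is the level in the library labelled Nr4a-deficient minus that in wild-type. Where a pair of levels or signals is given, the library labelled Nr4a-deficient comes first.

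Histone marks are written, removed and read by separate proteins. Methylation of lysine 4 or 36 of histone H3 accompanies active genes, methylation of lysine 9 or 27 accompanies silenced ones, and acetylation loosens the hold of histones on DNA. In Treg cells, Ezh2 helps to maintain repression of genes after activation, and p300, CBP and several deacetylases are known to act on the Foxp3 protein, the lineage's defining transcription factor, as well as on histones.

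Measures of the whole libraries bear on all values below. Of the targeted genes, Nr4a1 and Nr4a2 went against the label: Nr4a1 had a level of 5.51 in the library labelled Nr4a-deficient, against 4.65 in wild-type, and Nr4a2 had 0.83 and -0.15. The Nr4a3 signal ran the way the label says, at 23.7 and 72.0, but both values failed the background call and give no fold. The deleted exons are not given in the sources used here, so probes outside the deleted stretches and exchanged labels cannot be told apart. Exchanged labels would turn the sign of every difference given here. The 7 T cell and Treg markers were all detected, with Cd3e at 5.95 and 5.77, Cd4 at 4.67 and 4.55, and Foxp3 near background at -4.56 and -4.58. They were not all level: Il2ra, the IL-2 receptor chain that marks Treg and activated T cells, had 3.24 and 4.51, a difference of -1.27, and was the 1 of the 7 past 2-fold. Of 11 B cell markers, 10 were detected and their summed signal was 23.99 times the array's 75th percentile in the library labelled Nr4a-deficient, beside 10.73 times in wild-type. Erythroid and platelet markers, 4 of 8 detected, went the other way at 10.698 and 38.148 times. The 20 proliferation genes had a summed signal of 156 and 180 times, and 17 of them were lower in the library labelled Nr4a-deficient. The part of these other cell types and of cycling cells in the differences of the enzymes was not tested, and in bulk RNA fewer cells of a type cannot be told apart from less RNA per cell. On the scale of the 8 spike-in RNAs, each difference is lower by 0.36 ± 0.057 (SD, n = 8 spike-in RNAs), so signs of small differences depend on the scale.

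Nearly all of the enzymes were expressed in both libraries, and few differed much. Of the 85, 82 were well above background on at least 1 array and 80 on both. These 80 were 43 writers, 31 erasers and 6 of the genes that are not enzymes. Kdm5d, a demethylase gene of the Y chromosome, and Mllt4 did not pass the background call on either array. Prmt8 had a single spot that the scanner software called an outlier in the library labelled Nr4a-deficient, so it gave no value. Past 2-fold, counting bounds for genes seen on 1 array only, were 2 of 82 (Hdac9, lower, and Hdac11, higher), beside 9.63% of the 18540 genes detected, of which 4.7% were higher and 4.94% lower. Among genes measured on both arrays, it was 1 of 80 (Hdac9), beside 5.71% of 16298 genes, with 2.64% higher and 3.06% lower. At 1.5-fold it was 3 of 80 (3.75%), namely Hdac9, Mll2 and Setd4, beside 12.1% of all genes. The median size of the difference, without its sign, was 0.15 over the 74 enzymes measured on both arrays and 0.18 over all genes. Bright probes have less noise, and among the genes with a mean level over 0 the medians were 0.14 for the enzymes and 0.14 for all genes. The shares past a fold were lower in this brighter set too. Past 1.5-fold were 1 of 54 enzymes (1.85%), beside 480 of 8376 genes (5.73%). Past 2-fold were 0 of the 54 enzymes, beside 86 higher and 110 lower of the 8376 genes. Spots of the same probe gave an SD of the difference of 0.074 for levels over 1, 0.087 between -1 and 1, 0.14 between -3 and -1 and 0.32 below -3. This spot noise leaves out animals, sorts and RNA preparations. Beyond 2 such SDs lay 16 of 43 writers, 15 of 31 erasers and 7000 of all 16298 genes. The scanner software's own error of a difference was larger for bright probes, at 0.20 for Mll3 and for Ezh2. The differences of both (0.26 and -0.36) lay within 2 of these errors. Statements about spot SDs or spot noise below do not take this error into account.

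**Figure D1:**
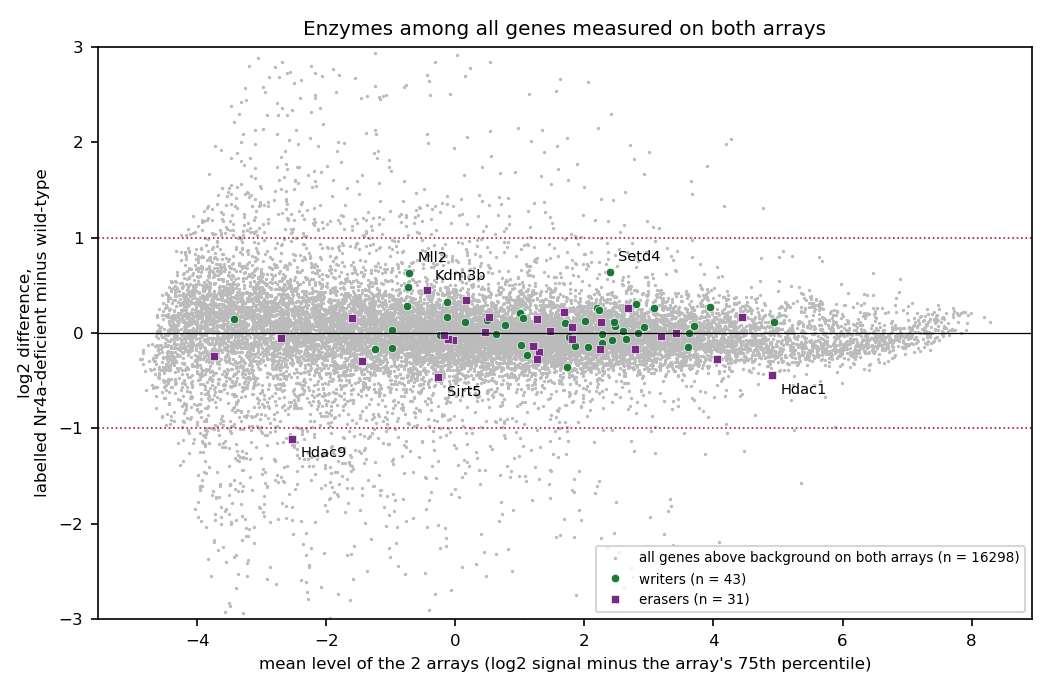
Difference (log2, library labelled Nr4a-deficient minus wild-type, y axis) against the mean scaled level of both arrays (log2, x axis) for the 16298 genes measured on both arrays, with writers and erasers in colour and dotted lines at 2-fold. The y axis ends at 3 on either side and leaves out 57 genes; apart from Hdac9, no writer or eraser measured on both arrays lies past the dotted lines.

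The writers had a median difference of 0.07, with 27 of 43 above 0 and 16 below, and on the spike-in scale the median was -0.29. Over all genes it was -0.01, with 7791 above 0 and 8507 below. None of the writers passed 2-fold, and their differences ran from -0.36 (Ezh2) to 0.64 (Setd4).

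The 6 methyltransferases of lysine 4 of histone H3 were all higher in the library labelled Nr4a-deficient on the 75th-percentile scale, by a median of 0.19, while on the spike-in scale their median was -0.17 and Mll2 alone stayed above 0, at 0.27. Mll2, which places this mark mainly at enhancers, had a level of -0.40 in the library labelled Nr4a-deficient, against -1.03 in wild-type, a difference of 0.63 (1.55-fold). Mll3, its close relative at enhancers, had levels of 2.32 and 2.06, a difference of 0.26. Mll1, the founding member that maintains Hox gene expression, was dim at -3.36 and -3.51, and its difference of 0.14 lay within spot noise. The Setd1 enzymes carry out most trimethylation of this residue at promoters. Setd1a had levels of 1.75 and 1.64, a difference of 0.10, and Setd1b had 2.34 and 2.10, a difference of 0.24. Setd7, which adds a single methyl group and also acts on many other proteins, had 2.51 and 2.43, a difference of 0.07. So Mll2, Mll3 and Setd1b differed by more than 2 spot SDs and the other 3 did not. By the scanner software's error, Mll2 alone lay beyond 2 errors. The array lists Kmt2b, a further enzyme of this group, under a name that the rule does not match (Wbp7), and it had levels of 3.01 and 2.88.

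The size of the Mll2 difference depended on the probe. Its 3 probes gave 0.35, 0.63 and 1.44, the widest range of any member, and all were above 0. The first 30 bases of each 60-base probe, as given by the array design (mm9, minus strand of chromosome 15), are shown because they differ in composition:
Mll2 probe at chr15:98665171-98665230, difference 0.35: aactgtgtagcggaggtcgtgacgtttgac
Mll2 probe at chr15:98664117-98664176, difference 0.63: tgagtgggtggaaggggggtaggagaagga
Mll2 probe at chr15:98662990-98663049, difference 1.44: ttgtgattttaggtttttgttttgttttaa
T made up 25%, 10% and 50% of the whole probes, in the same order. The probe with the largest difference was also the one richest in T and the dimmest, with signals of 433 and 186. The brightest probe had 1333 and 1000. The parts of composition and of low signal in that difference were not tested. The value of 0.63 above comes from the brightest probe, and the mean over the 3 probes was 0.81.

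Enzymes that methylate lysine 9 of histone H3, a mark of heterochromatin and silenced genes, were nearly level between the libraries. Their median difference was 0.07, the range over the 6 was -0.02 to 0.14, and none lay beyond 2 spot SDs. Ehmt2 (G9a), which dimethylates this residue in euchromatin, had levels of 5.00 and 4.88. Suv39h1, which trimethylates it in heterochromatin and is needed for stable T helper identity, had -0.970 and -1.004. Setdb1, which silences endogenous retroviruses, had -0.25 and -0.23.

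The catalytic subunits of Polycomb repressive complex 2 differed from each other. Ezh2, the subunit of activated and dividing cells, had a level of 1.55 in the library labelled Nr4a-deficient, against 1.91 in wild-type, a difference of -0.36 (1.28-fold lower), and this was the lowest of all writers. Ezh1, the subunit of resting cells, had 3.62 on both arrays, a difference of 0.00, and its 3 probes ran from -0.05 to 0.06. Of the 9 other PRC2 genes listed, 4 were above 0 and 5 below, with a median of -0.03 and none past 2-fold. The histone-binding subunits Rbbp4 (-0.37) and Rbbp7 (-0.26) were at the low end and Jarid2 (0.28), which recruits the complex, at the high end. Eed (-0.11) and Suz12 (-0.03), the core partners of Ezh2, lay between, and these 5 were picked from the list after their values were seen. Ezh2 is also highly expressed in cycling cells, and the proliferation genes had a median difference of -0.29 here. Their part in the Ezh2 value was not tested.

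Enzymes for lysine 36 of histone H3, a mark laid down over transcribed gene bodies, had differences of 0.02 (Setd2), 0.11 (Ash1l), 0.21 (Whsc1) and 0.27 (Whsc1l1). All 4 were above 0 on this scale and below 0 on the spike-in scale. Whsc1 had 5 probes that ran from -0.31 to 0.24, so its sign depended on the probe. Dot1l, the methyltransferase of the histone H3 core in elongating genes, had -0.08. For lysine 20 of histone H4, Setd8, which places the first methyl group, had 0.09, Suv420h2 had -0.00, and Suv420h1, which with Suv420h2 adds further ones, had 0.33 with levels of 0.03 and -0.30. The 4 probes of Suv420h1 ran from -0.02 to 0.33.

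Among the other SET-domain proteins, Setd4 had the largest difference of all writers. Its level was 2.72 in the library labelled Nr4a-deficient, against 2.08 in wild-type, a difference of 0.64 (1.56-fold) from the single probe with a value, and it stayed above 0 on the spike-in scale (0.28). Mll5, a divergent relative of the Mll enzymes, had 2.95 and 2.65, a difference of 0.30, and its other probe gave 0.19. Setd3 (-0.04), an actin histidine methyltransferase, Setd5 (0.11) and Setd6 (0.15), which methylates the NF-kappa B subunit RelA, differed less. Over all 27 lysine methyltransferases and SET-domain proteins, 22 were above 0 and 5 below, with a median of 0.11, which on the spike-in scale was -0.25.

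The arginine methyltransferases lay on the other side of 0. All 7 with a value were lower in the library labelled Nr4a-deficient, by a median of -0.15 (-0.52 on the spike-in scale), and none passed 1.5-fold. Prmt2, a weak enzyme that also acts as a nuclear receptor coactivator, had levels of 0.995 and 1.228, a difference of -0.23. Prmt1, which makes most of the asymmetric dimethylarginine in cells, had 3.53 and 3.68, a difference of -0.15, and its other probe gave -0.26. Prmt5, the main enzyme for the symmetric form, had 0.62 and 0.63, a difference of -0.01. Prmt3, a ribosome-associated enzyme, had -1.32 and -1.16, a difference of -0.16. Prmt6 (-0.16), Prmt7 (-0.15) and Prmt10 (-0.14) were close to it, and the 3 probes of Prmt6 ran from -0.16 to 0.34. Carm1, an arginine methyltransferase outside the naming rule, had levels of -0.03 and 0.24, a difference of -0.26.

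Set side by side, the medians of the lysine 4 enzymes and the arginine methyltransferases were 0.34 apart, and because both are read on the same arrays this gap does not move with the spike-in scale. The groups did not overlap: the lowest lysine 4 enzyme (Setd7) was 0.09 above the highest arginine enzyme (Prmt5), which is about the size of 1 spot SD. After cyclic loess normalization the groups overlapped, with a separation of -0.02. These groups were set against each other after their values were seen. The lysine 4 enzymes are the longer genes, with a median span of 44.0 kb (22.7 to 227 kb) beside 30.6 kb (4.90 to 82.9 kb) in RefSeq GRCm38.p6. Across genes of any level, the difference and the gene's span had a Spearman rho of 0.07 (n = 13014 genes, all read on the same 2 arrays). Among those with a level over 0 the rho was 0.18 (n = 6833 genes). Across the enzymes of any level it was 0.26 (n = 74). The part of gene length in the gap was not tested.

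**Figure D2:**
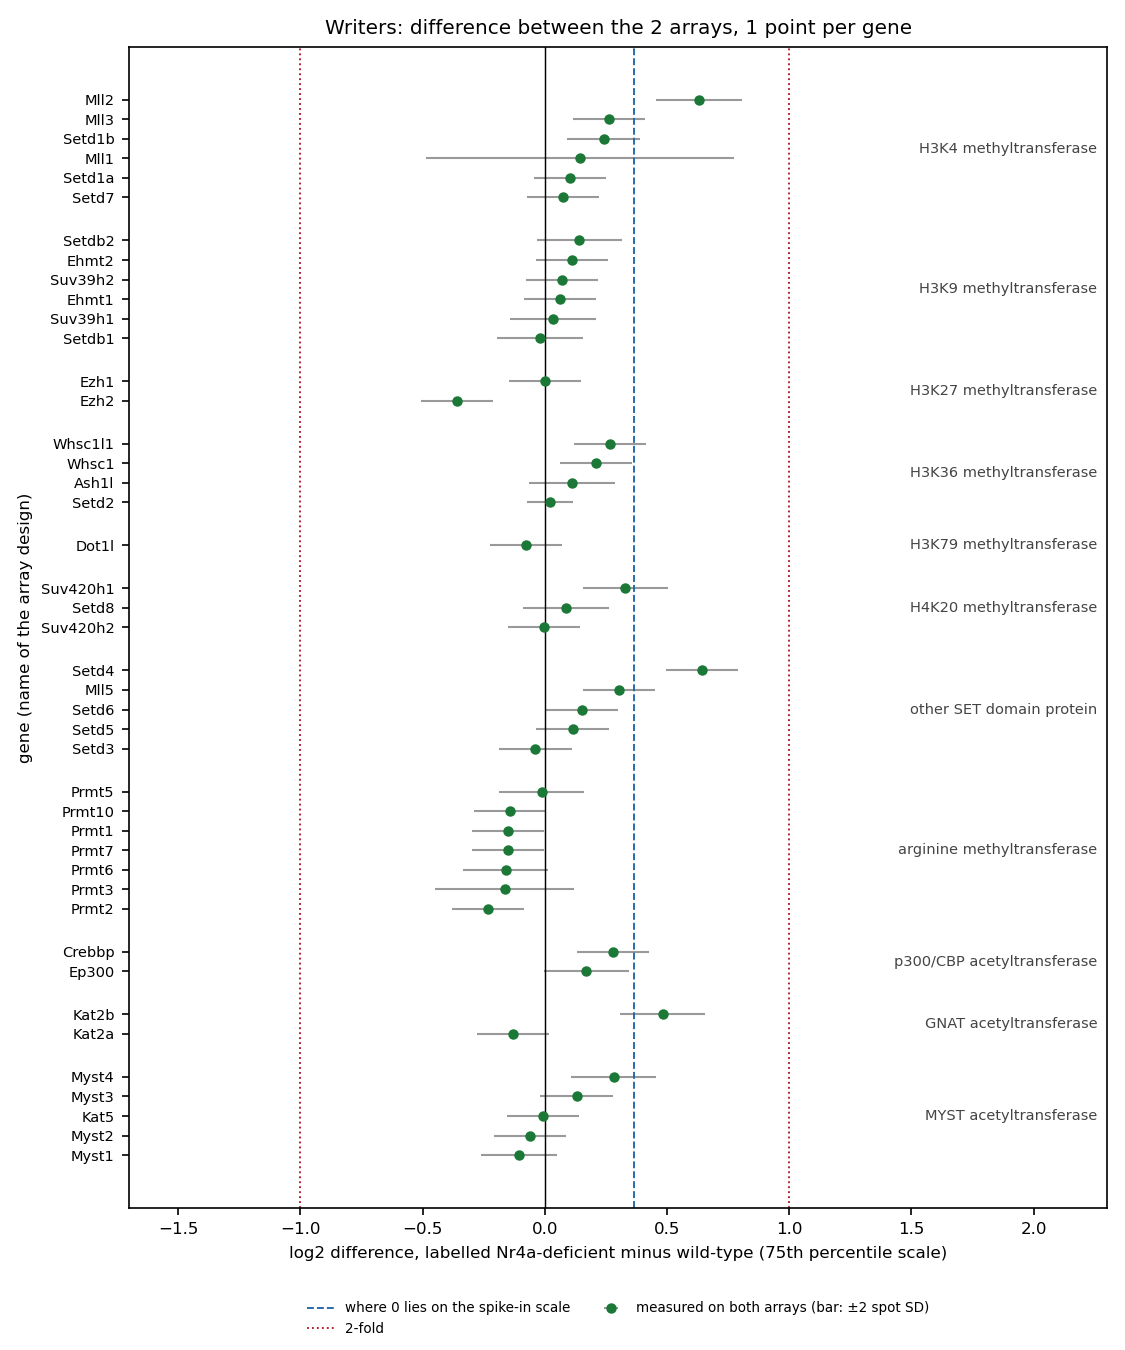
Difference (log2, labelled Nr4a-deficient minus wild-type library, x axis) of the 43 writers measured on both arrays, grouped by the residue or family, with bars of 2 spot SDs to either side. The lysine 4 enzymes lie between 0.07 and 0.63 and the arginine methyltransferases between -0.23 and -0.01.

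The 9 lysine acetyltransferases had differences from -0.13 to 0.48 with a median of 0.13, 5 above 0 and 4 below (median -0.23 on the spike-in scale). Kat2b (PCAF), the acetyltransferase of a coactivator complex, had a level of -0.49 in the library labelled Nr4a-deficient, against -0.98 in wild-type, a difference of 0.48 (1.40-fold). The pseudogene Kat2b-ps had 0.42 from a separate dim probe, and how far either probe also binds the other transcript is not known. Kat2a (GCN5), its paralogue, had 0.96 and 1.09, a difference of -0.13. Crebbp (CBP) had 4.08 and 3.80, a difference of 0.28 from the brighter of its 2 probes, while the other gave -0.21. Ep300 (p300), the paralogue of CBP, had -0.04 and -0.21, a difference of 0.17. Kat5 (Tip60), which acetylates Foxp3, had 2.27 and 2.28, a difference of -0.01. Of the Myst genes, Myst3 had 0.13 and Myst4 had 0.28, with its other probe at -0.13. Myst1, the lysine 16 enzyme of histone H4, had -0.10, and Myst2 had -0.06.

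The erasers had a median difference of -0.05, with 13 of 31 above 0 and 18 below, and -0.42 on the spike-in scale. Both members past 2-fold were in this class.

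Of the 10 histone deacetylases measured on both arrays, 9 were lower in the library labelled Nr4a-deficient and only Hdac5 was higher on the 75th-percentile scale, and on the spike-in scale all 10 were below 0. Their median was -0.22 (-0.59 on the spike-in scale), and 6 of the 10 lay beyond 2 spot SDs. Of all 16298 genes, 8507 were below 0 and 7000 lay beyond 2 spot SDs. By the scanner software's error, Hdac1 and Hdac9 alone of the 10 lay beyond 2 errors. The deacetylase values come from the brightest probes, and for Hdac1 and Hdac8 the sign depended on the probe.

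Class IIa deacetylases have little catalytic activity of their own and move between nucleus and cytoplasm with signalling. Hdac9, of this class and known to restrain Treg number and function, had the largest difference of all members measured on both arrays. Its processed signal was 208 in the library labelled Nr4a-deficient, against 522 in wild-type, which are levels of -3.08 and -1.97, and the difference was -1.11 (2.15-fold lower). Hdac9 had 1 spot on each array and so no spot SD of its own. Repeated spots of other probes gave an SD of 0.14 at levels of -3 to -1, where its mean level lies. Below -3, where its level in the library labelled Nr4a-deficient lies, they gave 0.32. The Hdac9 value rests on 1 dim probe, and with another background correction (normexp) the difference was -0.81, so that the 2-fold call ended. Hdac7, which is abundant in T cells and controls gene expression during thymocyte selection, had 3.91 and 4.19, a difference of -0.28. Hdac4 had -0.19 and -0.17, a difference of -0.02, and Hdac5 had 2.81 and 2.55, a difference of 0.26. So within this class 2 members were lower beyond spot noise, 1 was higher and 1 did not differ beyond it.

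Hdac11, the sole class IV deacetylase and known as a repressor of Il10, passed the background call in a single library, the one labelled Nr4a-deficient. Its signal was 153 there and 29.8 in wild-type, where the lowest signal with a well-above-background call was 73.8. Set against that limit it was at least 2.41-fold higher (1.27 in log2), with its own signal taken as exact. Spots of other probes below a level of -3 had an SD of the difference of 0.32. The scanner software's error of the Hdac11 difference was 0.908 in log2. The bound was under 2-fold on the spike-in scale (0.91 in log2) and with normexp (0.84). As with Hdac9, 1 probe decides the value, and the part of the B cells, whose markers had more signal in that library too, was not tested. The first 30 bases of the probes behind both members past 2-fold (mm9, array design) are shown, since each call rests on that sequence alone:
Hdac9 probe at chr12:35056405-35056464, minus strand: ggtgatctcttgttttgtgttgtaaatata
Hdac11 probe at chr6:91124085-91124144, plus strand: agaccttgagtgagctacaatctccattgg
The whole Hdac9 probe has 35% G and C and 51.7% T, and the whole Hdac11 probe has 45% G and C and 30% T.

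Class I deacetylases are the catalytic cores of the large nuclear corepressor complexes. Hdac1 had a level of 4.68 in the library labelled Nr4a-deficient, against 5.13 in wild-type, a difference of -0.44 (1.36-fold lower) from its brightest probe. Its other probes gave -0.14 and 0.46, so the sign depended on the probe. All 3 lie near each other on the minus strand of chromosome 4 in mm9, and their first 30 bases are shown because they read nearby stretches and disagree:
Hdac1 probe at chr4:129193374-129193433, difference -0.44: gtggaggttgatagcctagcttcctttttg
Hdac1 probe at chr4:129193527-129193586, difference 0.46: tgttaaactttttaggaggggtctgggtct
Hdac1 probe at chr4:129193716-129193775, difference -0.14: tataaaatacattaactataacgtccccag
Hdac2, its close paralogue, was dim at -3.87 and -3.62, a difference of -0.24. Hdac3, the enzyme of the NCoR and SMRT corepressors, had -0.14 and -0.07, a difference of -0.06. Hdac8 had a difference of -0.05, with its other probe at 0.16.

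Class IIb was lower with agreement between probes. Hdac6, a mainly cytoplasmic deacetylase of tubulin that also limits Treg suppression, had levels of 1.13 and 1.40, a difference of -0.28, and its other probe gave -0.31. Those probes overlap by 48 of 60 bases and so are nearly the same measurement, as their first 30 bases show (mm9, minus strand, with the shared bases in capitals):
Hdac6 probe at chrX:7507261-7507320: acattgaaggagACAACGGGGCAGTGGCAG
Hdac6 probe at chrX:7507249-7507308: ACAACGGGGCAGTGGCAGCAGGTCAGCATA
Hdac10, a polyamine deacetylase, had -0.20 on both of its probes.

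**Figure D3:**
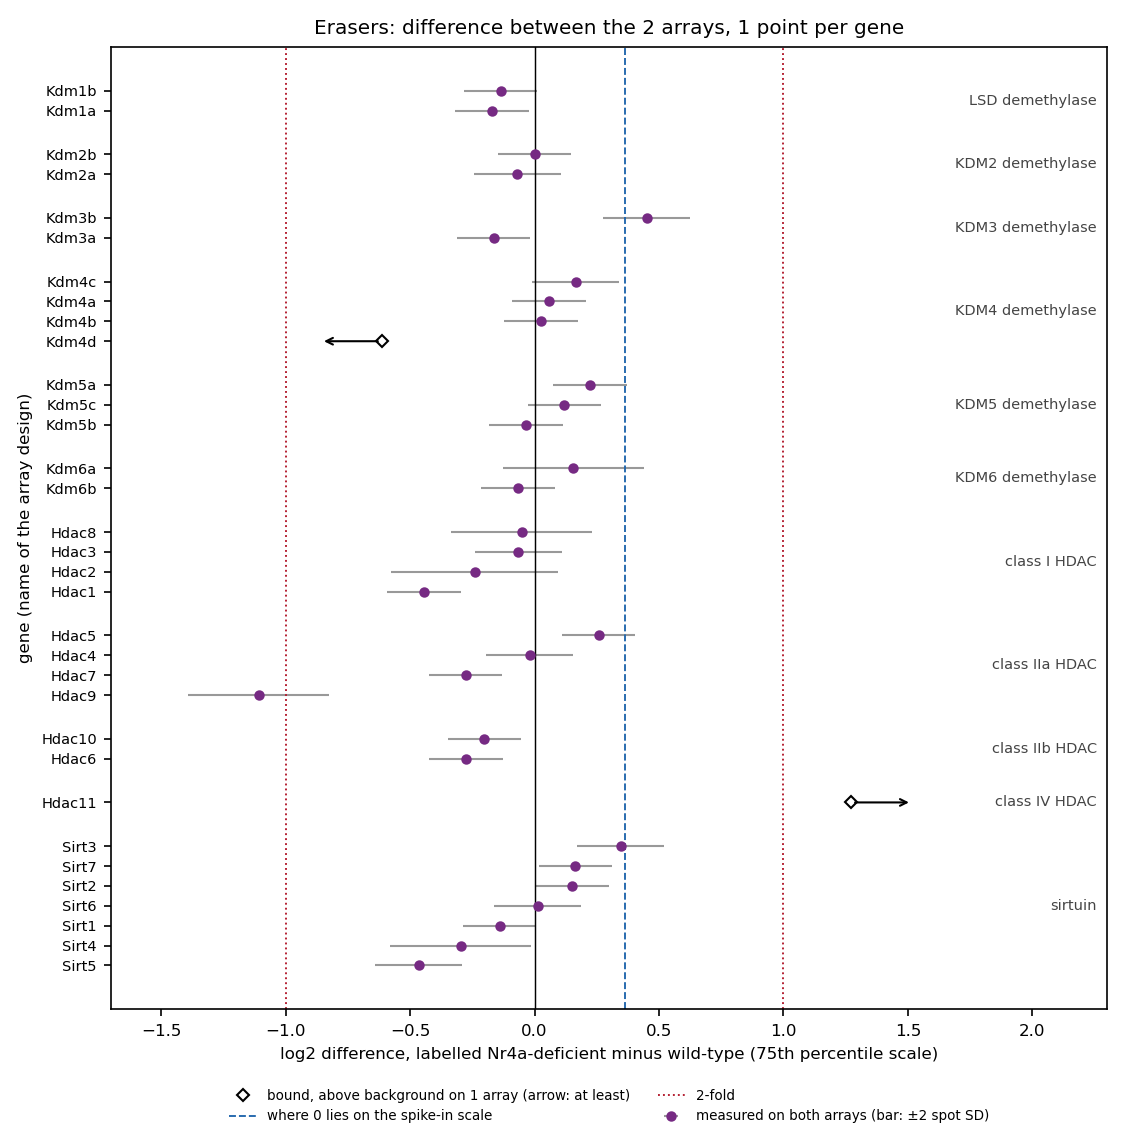
Difference (log2, labelled Nr4a-deficient minus wild-type library, x axis) of the erasers by class, with bars of 2 spot SDs to either side and arrows for bounds of genes seen on 1 array only. Hdac9 lies at -1.11 and the other deacetylases measured on both arrays lie between -0.44 and 0.26.

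The sirtuins, deacylases that use NAD, were split, with 4 of 7 above 0 and 3 below and a median of 0.01. Among them 5 lay beyond 2 spot SDs, beside 7000 of all 16298 genes. By the scanner software's error, Sirt5 alone of the 7 lay beyond 2 errors. The mitochondrial members differed in both directions: Sirt5, which removes succinyl and malonyl groups, had levels of -0.50 and -0.03, a difference of -0.46 (1.38-fold lower), Sirt4 had -0.30, and Sirt3, the main mitochondrial deacetylase, had 0.34 and -0.01, a difference of 0.35. The 2 probes of Sirt4 gave -0.30 and -0.37. The nuclear Sirt1, which deacetylates Foxp3, had 1.13 and 1.27, a difference of -0.14, and Sirt7, of the nucleolus, had 4.52 and 4.36, a difference of 0.16. Sirt6 had 0.01 and the mainly cytoplasmic Sirt2 had 0.15. On the spike-in scale all 7 were below 0, with Sirt3 at -0.02.

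The 14 lysine demethylases measured on both arrays had a median difference of 0.01, with 8 above 0 and 6 below, and none passed 1.5-fold. Kdm3b, which acts on lysine 9 of histone H3, had levels of -0.22 and -0.67, a difference of 0.45 (1.37-fold), with its other probe at 0.13. Its paralogue Kdm3a had -0.16. Kdm1a (LSD1), the flavin-dependent enzyme of the CoREST complex, had 2.70 and 2.87, a difference of -0.17, and Kdm1b had -0.14. The lysine 27 demethylases were close to 0: Kdm6a (UTX) had -1.52 and -1.68, a difference of 0.16, and Kdm6b (JMJD3), which is induced by inflammatory signals, had 1.77 and 1.84, a difference of -0.07. For the lysine 4 demethylases, Kdm5a had 0.22, Kdm5b had -0.04 and Kdm5c had 0.12. The lysine 36 demethylases Kdm2a (-0.07) and Kdm2b (0.00) and the Kdm4 enzymes Kdm4a (0.06), Kdm4b (0.03) and Kdm4c (0.17) lay within 2 spot SDs. A second, dim probe of Kdm4a gave 0.86, with signals of 165 and 106. Kdm4d was well above background in wild-type only, with a signal of 45.4 in the library labelled Nr4a-deficient, against 90.8 in wild-type. With the wild-type signal taken as exact, it was at least 1.53-fold lower. This bound (-0.61 in log2) lay within 2 spot SDs, at 0.32 each for levels below -3.

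The genes that match the name but encode no histone-modifying enzyme differed little. Mllt3 (-0.33) and Mllt1 (-0.27), which encode readers of acetylated histones in the elongation machinery, were lower, while Mllt6 (0.01), Mllt10 (0.11), a cofactor of Dot1l, and Mllt11 (0.14) lay within 2 spot SDs.

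Where several probes read the same member, they often disagreed about small differences. For 33 members with 2 or more probes well above background on both arrays, the probes had the same sign in 18 and opposite signs in 15. The range between probes had a median of 0.19, which is larger than the median size of the enzymes' differences (0.15). No member had probes of opposite sign that lay 1 or more apart, and Hdac1 came closest with a range of 0.91. Past 2-fold were 2 of 128 probes (1.56%), the Hdac9 probe and 1 of Mll2. The share over all probes of the array is not given here. Of all genes measured on both arrays, each read by its brightest probe, 5.71% were past 2-fold.

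**Figure D4:**
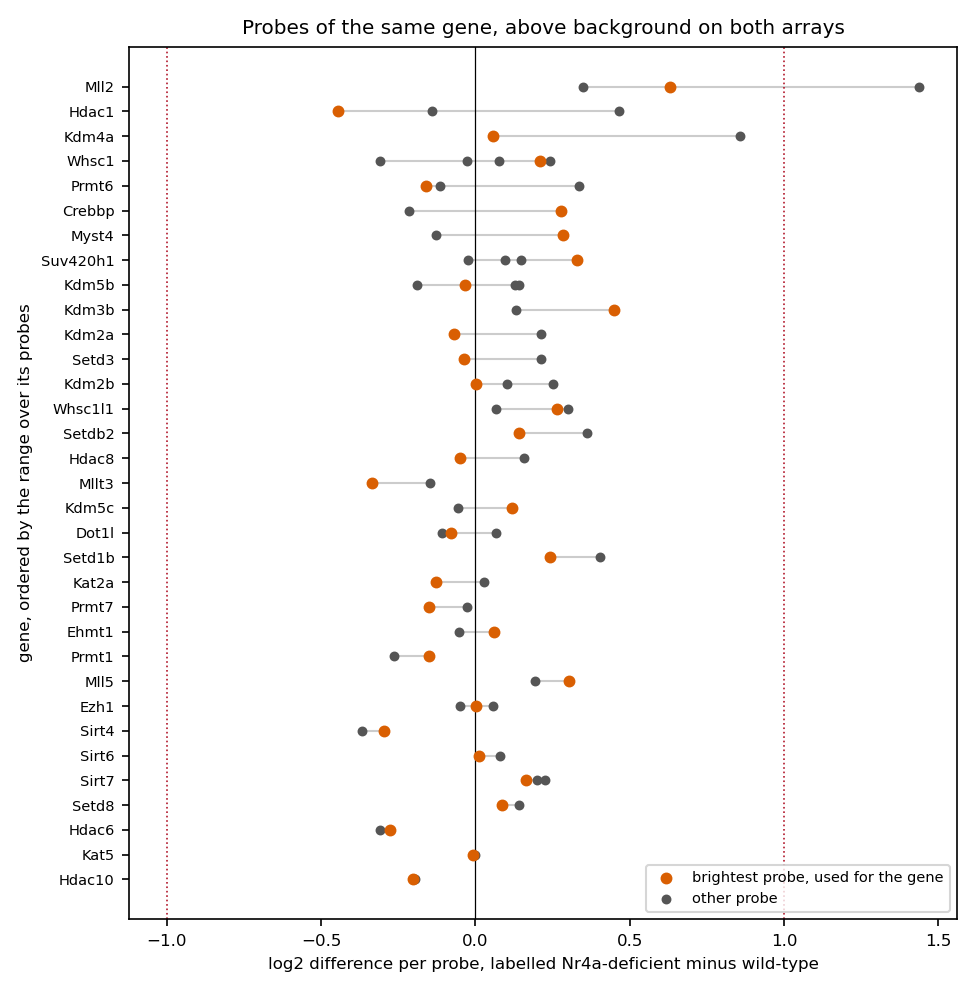
Differences (log2, labelled Nr4a-deficient minus wild-type library) of the single probes of the 33 members with 2 or more probes well above background on both arrays. Lines join the probes of a gene; the longest belong to Mll2 (0.35 to 1.44), Hdac1 (-0.44 to 0.46) and Kdm4a (0.06 to 0.86).

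For 3 members the array prints the same probe in 10 spots, which shows how precisely 1 array reads it. Hdac2 had a lowest, median and highest signal of 5.83%, 6.83% and 8.63% of the array's 75th percentile in the library labelled Nr4a-deficient, against 7.70%, 8.05% and 8.81% in wild-type. Its spots were lower in the former as a whole but overlapped. Myst1 had 432%, 465% and 499% in the library labelled Nr4a-deficient, against 473%, 502% and 536% in wild-type, and Setd2 had 588%, 603% and 631% and 579%, 596% and 621%. The spots of the 2 libraries overlapped for all 3 genes. The SD over spots, in log2, was 0.16 and 0.06 for the dim Hdac2, 0.06 and 0.05 for Myst1, and 0.04 and 0.03 for Setd2. These are technical repeats on an array and not replicates of the cells.

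**Figure D5:**
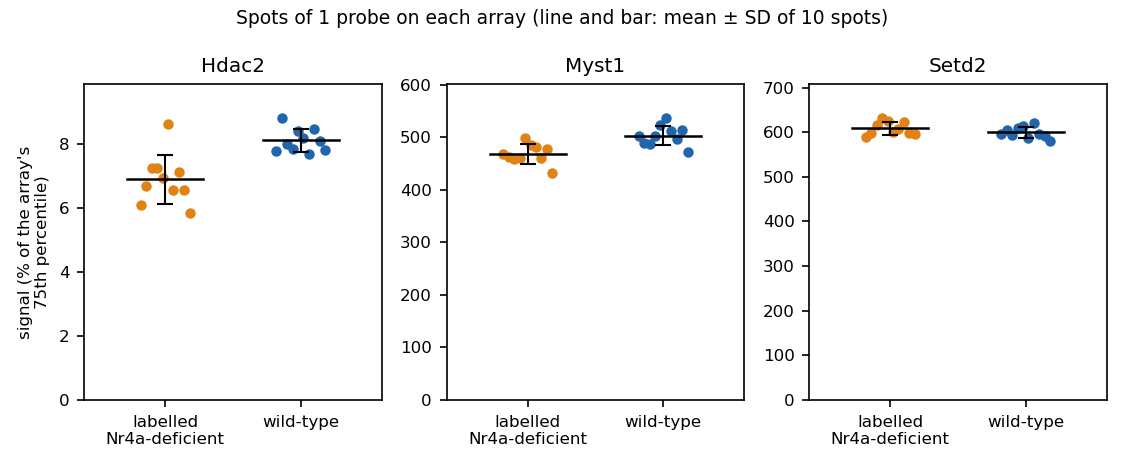
Signal of each of the 10 spots (percent of the array's 75th percentile, y axis from 0) of Hdac2, Myst1 and Setd2 in the 2 libraries. The spots of both libraries overlap for each gene, with medians of 6.83% and 8.05% for Hdac2.

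Proteins that work in complexes with the enzymes, or read their marks, were given by a list of 69 genes, of which 68 were measured on both arrays and none passed 2-fold, bounds included. Of the 68, 35 were above 0 and 33 below, with a median of 0.00. Subunits of the COMPASS complexes, the partners of the Mll and Setd1 enzymes, had 4 of 11 above 0 and a median of -0.05, beside 6 of 6 above 0 for the lysine 4 enzymes. Subunits of the deacetylase complexes had 15 of 21 above 0 and a median of 0.07, beside 1 of 10 for the deacetylases. For the acetyltransferase complexes it was 10 of 20 with a median of -0.00, and for the readers 2 of 7 with a median of -0.08. No difference between these lists was tested.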

How the data were processed

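The authors deposited scanner output with 1 intensity per spot. Per the file headers it came from Agilent Feature Extraction 10.7.3.1 with background subtraction and spatial and multiplicative detrending, and no normalization between arrays is recorded. The authors' deposited value table holds intensity values of the same arrays (99.7% of 39348 probes within 1% on each, column medians 143.7 and 156.8). Per the labels' protocols, Cy3-labelled cRNA was made with a low-input kit. Processed signals were put on the log2 scale and each array's 75th percentile of gene probes was subtracted. Outlier spots (173 and 209) were left out, and repeated spots were averaged. A gene was its brightest probe well above background on at least 1 array, as called for over 50% of its spots. For genes seen on 1 array, the bound compares the bright value with the dim array's lowest signal that passed the background call (51.1, labelled Nr4a-deficient, and 73.8, wild-type), or with the dim probe itself where that was higher. The precision is limited by the number of arrays, 1 per group, so there was no test. Coordinates are the array design's (mm9), and no exon or untranslated region was assigned to them. Python 3.11.15, numpy 2.4.6, pandas 2.3.3, R 4.3.3 and limma 3.58.1 were used, and the computation was tested on simulated data. The members and lists were chosen with earlier results of these data known. Full values were given for members past 2-fold, the 3 highest and 3 lowest writers and erasers, members in 10 spots and a Treg panel. Alternatives covered scaling, background, filter, probes, bounds, threshold and source.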

Additional observations from a re-analysis of the deposited data

How the results depend on the processing

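No member past 2-fold changed direction under the alternatives run. The members past 2-fold were 2 with the stated processing, beside 9.63% of all genes. At 1.5-fold there were 5 (with Kdm4d, Mll2 and Setd4 added, beside 17.4% of all genes). There was 1 when both arrays had to be well above background, 1 on the spike-in scale and 0 with normexp. The shares of all genes in these 3 settings were 5.71%, 11.1% and 6.75%. Both members past 2-fold are erasers, so the erasers gave 1, 1 and 0 under the last 3 settings. The writers gave 2 at 1.5-fold in place of 0. The partner genes gave 2 in place of 0 when a gene's probes were averaged, beside 10.2% of all genes. These were Hcfc1, lower, and Mtf2, higher, named after their values were seen. Hdac9 ran from -1.47 (spike-in) to -0.81 (normexp), where its call ended, and the cause was not tested. The median of the writers was 0.07, but -0.023 on the median scale and -0.29 on the spike-in scale. That of the erasers was -0.05, but -0.15 and -0.42. Both shifts follow from the scale, which moves every gene alike. Probe choice also moved the erasers: with a gene's probes averaged, their median was 0.011, above 0, beside 0.071 for the writers. The gap between writers and erasers was then 0.060, beside 0.12 with the stated processing. The gap between the medians of the lysine 4 enzymes and the arginine methyltransferases was 0.32 to 0.34 in all alternatives, while the separation of the groups was -0.015 after cyclic loess, for which the cause was not tested. No paired analysis was possible because each group has 1 array. Signals near background limit Hdac11, Hdac9, Kdm4d, Mll1 and Hdac2.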
